A study of Mus musculus with 4 samples.

Results

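The 9 genes described here encode proteins of coagulation, fibrin crosslinking and plasminogen activation that are known to be made by myeloid cells: *F7*, *F10*, *F13a1*, *F3*, *Thbs1*, *Tgm2*, *Plau*, *Plaur* and *Serpinb2*. They were listed by name, with no threshold on a measured value but with earlier results of these data known. All 9 were found among the 27998 genes of the count tables. Their RNA was followed in leukocytes of injured muscle, across cell classes, genotypes and days after the injury.

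The tibialis anterior, the muscle in front of the shin, was taken from male mice aged 8 to 12 weeks. Every muscle had been injured with cardiotoxin, a snake venom toxin that kills muscle fibres, and was collected 2 or 4 days later (dpi2 and dpi4). Control mice were *Bach1* fl/fl littermates, which carry *loxP* sites in *Bach1* but no Cre. The Bach1-cKO mice, labelled KO, carried the same floxed *Bach1* and a Cre recombinase under the *Lyz2* promoter, which is active in monocytes, macrophages and neutrophils, so that the deletion was aimed at these cells. Both genotypes were on a C57BL/6J background. CD45-positive cells, that is leukocytes, were enriched with magnetic beads and profiled by 10x Genomics 3′ single-cell RNA sequencing, in 1 library for each of the 4 groups. Each difference below is therefore between 2 libraries and has no replicate check. Every interval is a 95% interval that covers counting error only, and no test was run.

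Clotting starts when tissue factor, the product of *F3*, meets factor VII (*F7*) at a cell surface, and the pair then activates factor X (*F10*), the enzyme that turns prothrombin into thrombin. Fibrin made by thrombin is crosslinked by factor XIII, whose catalytic A subunit is encoded by *F13a1*. It is later dissolved by plasmin, which urokinase (*Plau*) releases from plasminogen on cells that carry the urokinase receptor (*Plaur*), while *Serpinb2* encodes plasminogen activator inhibitor 2. *Tgm2* encodes tissue transglutaminase, an enzyme that crosslinks proteins of the matrix, and *Thbs1* thrombospondin-1, a matrix glycoprotein that binds cells and can activate latent TGF-β. BACH1 is a heme-binding repressor that acts with small MAF proteins, and *Hmox1* is its best-known target gene.

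The 4 libraries held from 4177 to 6602 barcodes and from 57010520 to 80228489 UMIs (unique molecular identifiers, each marking 1 captured RNA molecule), of which 17011 cells were kept. Of the 26 clusters of cells, 23 were named from fixed markers, and 3 stayed unnamed, which held 3.27% and 14.6% of the cells at dpi2 (control, KO-labelled) and 4.05% and 1.98% at dpi4. The names are written here as macrophage-like, monocyte-like, neutrophil-like, dendritic cell-like and T or NK-like. Between 2 and 14 barcodes were shared by any pair of libraries. The 3′ counts of *Bach1*, which need not come from the deleted exon and so do not check the deletion, were not lower in macrophage-like cells of the libraries with the label KO, which are therefore called KO-labelled here. They were 124 and 145 CPM (UMIs of the gene per 1000000 UMIs of the cells summed) in the control and KO-labelled cells at dpi2, and 216 and 228 CPM at dpi4. They were lower in the KO-labelled library in part of the other classes, at 288 against 266 CPM in monocyte-like cells at dpi2, and at 171 against 145 CPM at dpi2 and 231 against 186 CPM at dpi4 in dendritic cell-like cells, and higher in neutrophil-like cells at dpi2, at 197 against 258 CPM. *Lyz2*, the gene into which the Cre is inserted, was at 8073 and 18136 CPM in the macrophage-like cells of the control libraries and at 12.8 and 24.2 CPM in those of the KO-labelled ones. *Hmox1* in the same cells was at 676 against 10300 CPM at dpi2 and 494 against 7248 CPM at dpi4.

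Each library had cells of every myeloid class, in unequal numbers. Macrophage-like cells numbered 1896 in the control and 1064 in the KO-labelled library at dpi2, and 3011 and 2645 at dpi4. Monocyte-like cells fell from 2569 and 975 at dpi2 to 44 and 67 at dpi4, and neutrophil-like cells from 631 and 814 to 129 and 36, so that values of these classes at dpi4 rest on few UMIs. A level in CPM is the UMIs of a gene scaled to the UMIs of all cells of a class in a library. It therefore depends on which clusters make up the class, and fewer expressing cells cannot be told apart from less RNA per cell.

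The initiators of clotting had different cell sources. *F7* (ENSMUSG00000031443; GRCm38 chromosome 8, 13026034 to 13035809, plus strand) was highest in macrophage-like cells, with 79.3 CPM (76.5 to 82.2) in the control against 53.7 CPM (51.1 to 56.3) in the KO-labelled library at dpi2. At dpi4 it was at 40.6 CPM (39.0 to 42.3) and 36.5 CPM (34.8 to 38.3). Both dpi2 libraries were thus above both dpi4 libraries, and the control was above the KO-labelled library at each time point. Monocyte-like cells had 19.6, 13.6, 31.4 and 5.33 CPM in control dpi2, KO-labelled dpi2, control dpi4 and KO-labelled dpi4. The last 2 of these values rest on 14 and 3 UMIs, and the interval of the third (17.2 to 52.7) overlaps that of the macrophage-like cells of the same library. No UMI of *F7* was found in T or NK-like cells of any library, which were at most 132 cells in a library and of lower depth than the macrophage-like cells.

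*F10* (ENSMUSG00000031444; GRCm38 chromosome 8, 13037308 to 13056676, plus strand) lies 1498 bases downstream of *F7* on the same strand, yet its order of classes was another. Among the named classes it was highest in monocyte-like cells, at 243 CPM (237 to 249) in the control against 315 CPM (305 to 324) in the KO-labelled library at dpi2. At dpi4 it was at 197 CPM (158 to 243) and 119 CPM (92.2 to 151). Neutrophil-like cells came next with 120, 131, 46.0 and 84.6 CPM, then macrophage-like cells with 31.3, 54.8, 29.4 and 23.6 CPM, in the library order control dpi2, KO-labelled dpi2, control dpi4, KO-labelled dpi4. This order of the named classes held in all 4 libraries. It leaves out the unnamed clusters, which held 3.23% of the *F10* UMIs in the control and 17.9% in the KO-labelled library at dpi2. At dpi4 neutrophil-like cells did not differ beyond counting error from macrophage-like cells in the control (26.8 to 73.7 CPM against 28.0 to 30.8), nor from monocyte-like cells in the KO-labelled library (38.7 to 161 CPM against 92.2 to 151). The highest *F10* of all stood outside the named classes: cluster 12 held 1004 CPM in the control and 760 CPM in the KO-labelled library at dpi2. It had 6 of 7 neutrophil markers but stayed unnamed, because it was shallow and had no neutrophil marker among its leading genes. Its median of 3429.5 UMIs was above the 2888 of neutrophil-like cluster 2, which had such markers. The place of neutrophil-like cells in the order with cluster 12 included was not examined.

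*F3* (ENSMUSG00000028128; GRCm38 chromosome 3, 121723537 to 121735048, plus strand) was sparse in every leukocyte class but neutrophil-like cells. There it was at 38.4 CPM (29.2 to 49.5) in the control against 79.6 CPM (69.7 to 90.5) in the KO-labelled library at dpi2, from 59 and 234 UMIs, and at 24.4 and 47.0 CPM at dpi4 from 9 and 5 UMIs. In macrophage-like cells *F3* was at 0.950, 2.27, 1.29 and 1.13 CPM from 36 to 72 UMIs per library. Monocyte-like cells held 10 UMIs in the control and 47 in the KO-labelled library at dpi2, and none at dpi4. The few fibroblast-like cells that passed the CD45 enrichment had 162 CPM (98.9 to 250) in the control at dpi2, where they were 3 cells with 20 UMIs of *F3*. At dpi4 the level was 29.8 CPM (21.7 to 39.8) in 40 such cells of the control and 10.8 CPM (3.95 to 23.4) in 15 of the KO-labelled library.

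Of the crosslinking enzymes, *F13a1* (ENSMUSG00000039109; GRCm38 chromosome 13, 36867178 to 37050244, minus strand) was the gene of monocyte-like and macrophage-like cells. In monocyte-like cells it was at 526 CPM (517 to 534) in the control against 748 CPM (733 to 762) in the KO-labelled library at dpi2, and at 374 and 432 CPM at dpi4. In macrophage-like cells it was at 318 CPM (313 to 324) in the control against 713 CPM (704 to 723) in the KO-labelled library at dpi2, and at 266 and 251 CPM at dpi4. The macrophage-like cells of the KO-labelled library at dpi2 thus stood apart from those of the other 3 libraries, which lay between 251 and 318 CPM. Monocyte-like cells were above macrophage-like cells in all 4 libraries. Dendritic cell-like cells lay far below both, between 20.1 and 72.4 CPM, and neutrophil-like cells between 18.9 and 65.8 CPM. *F13a1* is overlapped on the other strand by the antisense genes *Gm49144* and *Gm30489*.

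*Tgm2* (ENSMUSG00000037820; GRCm38 chromosome 2, 158116402 to 158146436, minus strand) had another pattern, with its highest level in neutrophil-like cells: 301, 264, 338 and 235 CPM in control dpi2, KO-labelled dpi2, control dpi4 and KO-labelled dpi4. Monocyte-like cells had 178, 247, 211 and 165 CPM and macrophage-like cells 105, 123, 106 and 165 CPM. The intervals of neutrophil-like and monocyte-like cells overlapped in both KO-labelled libraries and were apart in both controls. Among macrophage-like cells, the control libraries were alike at dpi2 and dpi4, and the KO-labelled library at dpi4 was highest at 165 CPM (161 to 169).

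*Thbs1* (ENSMUSG00000040152; GRCm38 chromosome 2, 118111876 to 118127133, plus strand) was highest in monocyte-like cells in all 4 libraries. They had 1893 CPM (1876 to 1909) in the control against 3366 CPM (3336 to 3397) in the KO-labelled library at dpi2, and 1995 and 1525 CPM at dpi4. Macrophage-like cells had 705, 963, 243 and 188 CPM and neutrophil-like cells 480, 512, 162 and 188 CPM, in the same order of libraries. The 2 classes could not be told apart by counting error in the KO-labelled library at dpi4. T or NK-like cells held 143 CPM in the control at dpi2 (111 to 181) and 5.0 CPM in the KO-labelled library at dpi4 (1.36 to 12.8). The amount of *Thbs1* in cells that are not known for making it was therefore not the same in all libraries.

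The plasminogen activation genes were split between macrophages and monocytes. *Plau* (ENSMUSG00000021822; GRCm38 chromosome 14, 20836660 to 20843385, plus strand) was at 141 CPM (138 to 145) in macrophage-like cells of the control and 69.9 CPM (66.9 to 72.9) in those of the KO-labelled library at dpi2, and at 43.8 and 39.3 CPM at dpi4. Monocyte-like cells had less at dpi2, 66.7 and 36.0 CPM. At dpi4 they had 89.7 CPM (64.1 to 122, from 40 UMIs) in the control, above the macrophage-like cells, and 33.7 CPM (20.3 to 52.7, from 19 UMIs) in the KO-labelled library, not apart from them.

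*Plaur* (ENSMUSG00000046223; GRCm38 chromosome 7, 24462484 to 24475968, plus strand) varied least of the 9 genes between the libraries in monocyte-like cells. Its level there was 280, 276, 285 and 305 CPM in control dpi2, KO-labelled dpi2, control dpi4 and KO-labelled dpi4, with overlapping intervals. Neutrophil-like cells had 261, 180, 119 and 160 CPM, dendritic cell-like cells 157, 134, 111 and 94.2 CPM and macrophage-like cells 80.1, 106, 95.6 and 90.4 CPM. The receptor was thus lowest, of these 4 classes, in the macrophage-like cells that had most *Plau* at dpi2. At dpi4 the neutrophil-like and dendritic cell-like cells did not differ in *Plaur* beyond counting error in the control, nor did the dendritic cell-like and macrophage-like cells in the KO-labelled library.

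*Serpinb2* (ENSMUSG00000062345; GRCm38 chromosome 1, 107511423 to 107535478, plus strand) was almost confined to monocyte-like cells at dpi2, with 17.5 CPM (476 UMIs) in the control against 26.7 CPM (371 UMIs) in the KO-labelled library. They held 95.4% and 78.8% of all its UMIs in the kept cells of these libraries. At dpi4 the class held 9 and 4 UMIs. Macrophage-like cells had 14 UMIs in the control and 74 in the KO-labelled library at dpi2, 5 in the control at dpi4, and 0 in the KO-labelled library at dpi4, which allows up to 0.0640 CPM by a floor of 3 counts and 0.0787 CPM by the exact interval. The annotated gene *Serpinb10* overlaps *Serpinb2* on the same strand, so that reads of the one may be counted for the other.

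**Figure D1:**
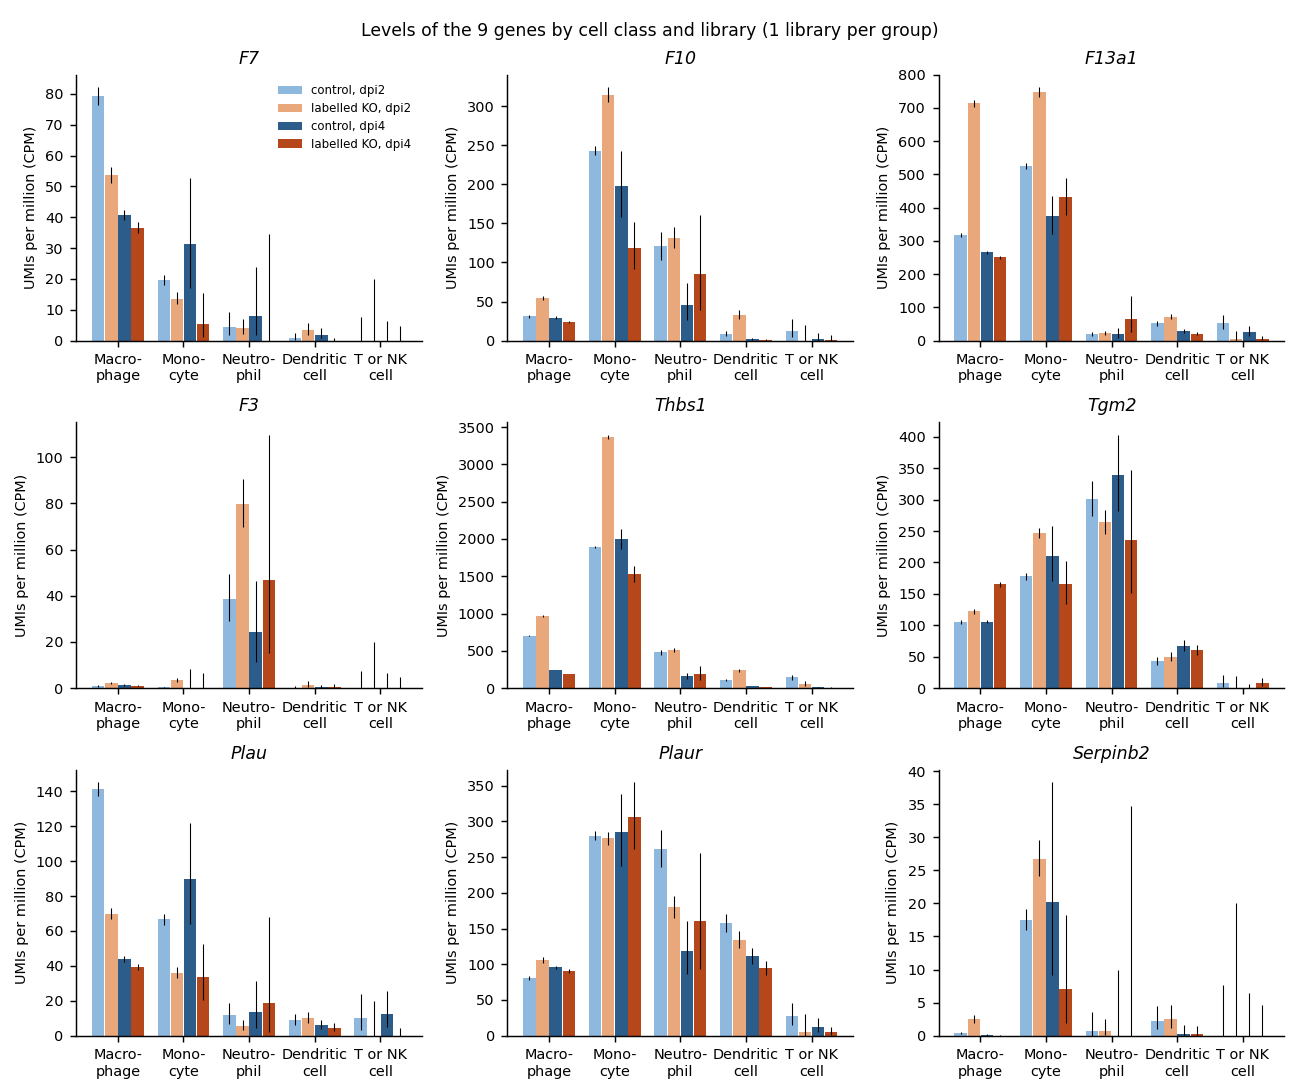
Each panel shows 1 gene, with its level (CPM, linear axis from 0) in 5 classes of cells and a bar for each of the 4 libraries; black lines are exact 95% Poisson intervals for counting error. *F7* and *Plau* are tallest in macrophage-like cells at dpi2, *F10*, *Thbs1* and *Serpinb2* in monocyte-like cells, *F13a1* in both, and *F3* and *Tgm2* in neutrophil-like cells.

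For sequence context, promoters were read from RefSeq (GRCm38.p6), which held the stretch from 250 bases before to 50 bases after a transcription start for 6 of the 9 genes, with 8 starts in all. *Thbs1*, *Tgm2* and *Plau* had no entry. The windows were searched on both strands for TGANTCA, the core of the element bound by AP-1 and, within a longer element, by MAF and BACH proteins, and for GCTGANTCA, the longer form that contains it. Of 32851 promoter windows of this length in the table, 7.81% held TGANTCA and 1.19% GCTGANTCA. *F3* had 2 matches to TGANTCA, 146 and 135 bases before the start. *Plaur* had 1 match 69 bases before it, which is also the only match to GCTGANTCA among the 6 genes searched, and *Serpinb2* had 1 match 94 bases before its first start, which lies 181 bases before its second. *F7*, *F10* and *F13a1* had no match in these windows. The 150 bases before the start are shown for the 3 genes with a match, 5′ to 3′, with TGANTCA matches in capitals; they lie at chr3:121723387-121723536 (*F3*), chr7:24462333-24462482 (*Plaur*) and chr1:107511273-107511422 (*Serpinb2*), all on the plus strand. A match is a run of letters and not a measured binding site.
F3: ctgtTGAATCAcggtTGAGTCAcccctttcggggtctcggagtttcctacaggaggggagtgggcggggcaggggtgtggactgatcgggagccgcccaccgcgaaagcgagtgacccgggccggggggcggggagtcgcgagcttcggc
Plaur: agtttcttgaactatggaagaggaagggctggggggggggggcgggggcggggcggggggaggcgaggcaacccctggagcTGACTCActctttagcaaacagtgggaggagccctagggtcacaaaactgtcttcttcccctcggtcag
Serpinb2: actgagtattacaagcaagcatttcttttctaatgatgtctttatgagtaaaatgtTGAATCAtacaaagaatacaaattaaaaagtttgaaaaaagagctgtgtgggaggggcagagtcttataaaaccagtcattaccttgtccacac

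The first comparison set the KO-labelled library against the control at the same time point, within a class. A gene was counted as higher or lower where the ratio of CPM was at least 2-fold, its interval left out 1, and the pair of libraries held at least 50 UMIs of it, which is a rule of size and not a test. In macrophage-like cells at dpi2, 3 of the 9 genes were higher and 1 was lower, where 4.44% of the 11116 genes with enough UMIs passed the rule in either direction. *F13a1* was higher, from 318 to 713 CPM, a ratio of 2.24 (2.19 to 2.29). *Serpinb2* was higher at 6.69-fold (3.75 to 12.8) and *F3* at 2.39-fold (1.57 to 3.69), both from under 80 UMIs per library. With monocytes and macrophages pooled, the calls of *F13a1* and *Serpinb2* were lost, at log2 ratios of 0.84 in place of 1.16 and 0.43 in place of 2.74. *Plau* was lower, from 141 to 69.9 CPM, at a ratio of 0.494 (0.470 to 0.520), a call lost with 5 of the 14 alternatives, under which its log2 ratio of -1.02 was between -0.90 and -1.0. The remaining genes stayed within 2-fold: *F10* had a ratio of 1.75 (1.63 to 1.89), *Thbs1* of 1.37 (1.34 to 1.39), *Plaur* of 1.32 (1.26 to 1.39), *Tgm2* of 1.17 (1.12 to 1.23) and *F7* of 0.677 (0.637 to 0.719). The median log2 ratio of the 9 genes was 0.45, beside -0.017 over all genes with enough UMIs.

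Traces of neutrophil RNA in macrophage-like cells also differed between the libraries. The 7 neutrophil markers summed to 100 CPM in macrophage-like cells of the control and 256 CPM in those of the KO-labelled library at dpi2, and none of the 7 was at 0. At least 1 UMI of *S100a8* or *S100a9* was found in 45.6% and 88.9% of these cells. When the cells with such a UMI were left out, 1032 and 118 macrophage-like cells remained and the log2 ratio of *F13a1* was 0.95 (0.87 to 1.03) in place of 1.16. That of *Plau* was then -1.18 (-1.41 to -0.96), that of *F7* -1.06 (-1.42 to -0.72) in place of -0.56, and that of *F10* 0.14 (-0.20 to 0.46) in place of 0.81. Those of *Thbs1*, *Tgm2* and *Plaur* were 0.63, 0.41 and 0.45 in place of 0.45, 0.23 and 0.40. *F3* was left with 23 and 6 UMIs and *Serpinb2* with 8 and 5 in the control and KO-labelled cells, too few for the rule. Their log2 ratios were then 0.95 (-0.64 to 2.29) in place of 1.26 and 2.21 (0.25 to 4.0) in place of 2.74. The whole class had a median of 18600 UMIs per cell in the control and 26488 in the KO-labelled library at dpi2. Whether the cells that remained differed in depth or in clusters from those left out was not examined. The part of neutrophil RNA in the ratios of these genes was not tested. The 6 platelet markers summed to between 0.902 and 1.23 CPM in macrophage-like cells of the 4 libraries. A platelet-marker UMI was found in 1.64% and 2.16% of these cells of the control and the KO-labelled library at dpi2. *F13a1* is abundant in platelets, and the part of platelet RNA in its ratio was not tested.

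Monocyte-like cells at dpi2 had 1 gene past the rule, *F3*, at a ratio of 9.20 (4.59 to 20.4) from 10 and 47 UMIs, where 4.4% of all 10000 genes passed. *Thbs1* was close to the rule, from 1893 to 3366 CPM, a ratio of 1.78 (1.76 to 1.80). *F13a1* had a ratio of 1.42 (1.39 to 1.46), *Tgm2* of 1.39 (1.33 to 1.45), *F10* of 1.30 (1.25 to 1.35) and *Serpinb2* of 1.53 (1.33 to 1.75). *Plau* at 0.540 (0.488 to 0.597) and *F7* at 0.694 (0.585 to 0.821) lay below 1, and *Plaur* was level at 0.987 (0.949 to 1.03). Neutrophil markers summed to 210 and 416 CPM in these cells. With *S100a8* or *S100a9* cells left out, the log2 ratio of *Thbs1* was 0.99 in place of 0.83 and that of *F10* 0.61 in place of 0.37, while *F3*, left with 9 and 13 UMIs, was at 2.95 (1.61 to 4.35) in place of 3.20. *F7* was then at -1.03 (-1.61 to -0.50) in place of -0.53, past 2-fold, and *Serpinb2* at 0.29 (-0.099 to 0.67) in place of 0.61. The classes did not hold the same clusters in the 2 libraries: cluster 1 gave 1386 of the control's monocyte-like cells and 201 of the other library's, and cluster 4 gave 675 and 636.

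At dpi4 most of these differences were smaller. In macrophage-like cells, 0 of the 8 genes with enough UMIs passed the rule, where 2.27% of 11975 genes did. *F13a1* had a ratio of 0.943 (0.920 to 0.966), *Thbs1* of 0.773 (0.753 to 0.794), *F10* of 0.802 (0.742 to 0.866), *Plau* of 0.897 (0.844 to 0.954) and *F7* of 0.899 (0.844 to 0.958). *Tgm2* was the exception, at 1.56-fold (1.51 to 1.61), above its ratio at dpi2. In monocyte-like cells, from 44 and 67 cells, *Plau* was lower at 0.376 (0.206 to 0.665), 1 of 6 genes with enough UMIs, where 3.19% of 3103 genes passed. This call was lost with either other cluster resolution, with each library clustered by itself, with a minimum of 200 UMIs and with monocytes and macrophages pooled.

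Neutrophil-like cells at dpi2 had *F3* higher in the KO-labelled library at 2.07-fold (1.55 to 2.81), 1 of 6 genes with enough UMIs, where 9.35% of 5784 genes passed. The median log2 ratio of all genes in this class was -0.31, and relative to it *F3* was at 1.36 and *Plaur*, with a ratio of 0.690 (0.605 to 0.787), at -0.23. Of the 541 genes of the class past the rule, 142 were higher and 399 lower, and 260 were higher and 189 lower once ratios were taken relative to the median. *F10*, *F13a1*, *Thbs1* and *Tgm2* had ratios between 0.876 and 1.23. The unnamed cluster 12, nearest to neutrophils by its markers, was not part of the class. Its *F3* was at 3.97 CPM (1 UMI) in the control and 21.5 CPM (40 UMIs) in the KO-labelled library at dpi2. The ratio of *F3* with this cluster included was not examined. At dpi4 none of the 3 genes with enough UMIs passed in neutrophil-like cells, where 6.1% of all genes did.

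In dendritic cell-like cells at dpi2, *F10* was higher, from 8.21 to 32.8 CPM at 3.99-fold (2.65 to 6.20), and so was *Thbs1*, from 112 to 238 CPM at 2.12-fold (1.88 to 2.39). These were 2 of 6 genes with enough UMIs, where 3.13% of all genes passed. The neutrophil markers summed to 132 and 332 CPM in these cells. With *S100a8* or *S100a9* cells left out (219 and 68 cells remained), *F10* had a log2 ratio of 2.49 (1.73 to 3.28) and *Thbs1* of 1.36 (1.15 to 1.57). That of *F10*, 2.0 with all cells of the class, was between 1.06 and 2.49 under the alternatives, and lowest without doublet removal. The call of *Thbs1* was lost with 4 of the 14 alternatives, and its log2 ratio was 0.43 without doublet removal and 0.37 at cluster resolution 2, where the class had 297 and 206 cells in place of 299 and 231. At dpi4 none of 4 genes passed, where 1.3% of all genes did.

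**Figure D2:**
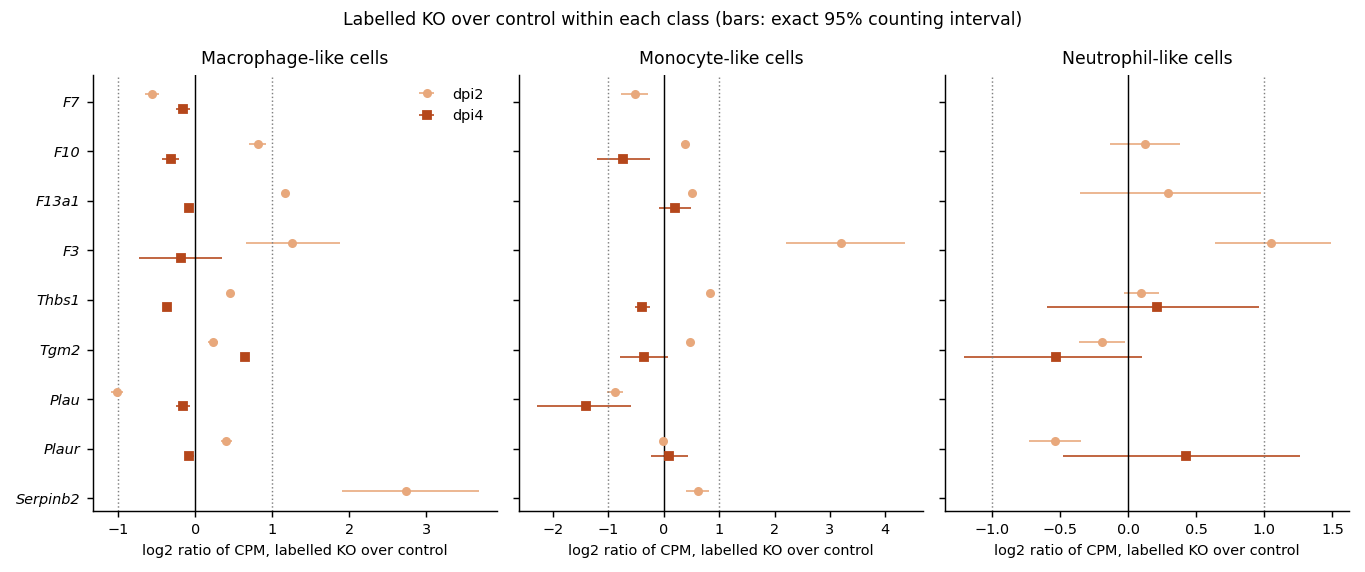
Points are log2 ratios of CPM, KO-labelled library over control, for genes with at least 50 UMIs in the pair, at dpi2 (circles) and dpi4 (squares); bars are exact 95% counting intervals and dotted lines mark 2-fold. In macrophage-like cells *F13a1*, *F3* and *Serpinb2* lie above 2-fold and *Plau* lies just past it on the other side at dpi2, and no point lies past 2-fold at dpi4.

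Because the classes hold several clusters, the dpi2 comparison was repeated inside the macrophage-like and monocyte-like clusters that had at least 50 cells in both libraries, which were 5. The 9 genes had not been used to make the clusters, although *F10* and *Thbs1* were among the leading genes of cluster 4 and *F7* among those of cluster 0. *F13a1* was above the control in both macrophage-like clusters: from 172 to 504 CPM in cluster 0, led by *Cd36* and *Spp1* among others, a ratio of 2.93 (2.82 to 3.04), and from 684 to 1302 CPM in cluster 7, led by *Cd163* and *Mrc1* among others, a ratio of 1.90 (1.84 to 1.96). Among the monocyte-like clusters it was at 336 and 744 CPM in cluster 4 (led by *F10*, *Vcan*, *Thbs1* and *Dmkn* among others) and at 514 and 679 CPM in cluster 1 (led by *Cxcl10* and *Ifi205*). In cluster 11 (led by *Ifitm6* and *Ace*) it was level, with a ratio of 1.02 (0.962 to 1.09). The ratio of *F13a1* thus ran from no detectable difference in cluster 11 to almost 3-fold in cluster 0.

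*Thbs1* was above the control in all 5 of these clusters, with log2 ratios from 0.44 to 0.78. In the other clusters with enough cells its log2 ratio was 0.99 (0.80 to 1.18) in dendritic cell-like cluster 9, and the intervals held 0 in neutrophil-like cluster 2, at 0.095 (-0.033 to 0.22), and in the unnamed cluster 12, at 0.14 (-0.0052 to 0.28). *F7* lay below the control in 4 of them beyond counting error, with log2 ratios from -0.51 in cluster 0 to -1.52 in cluster 4, and in cluster 11 its interval held a ratio of 1. *Plau* lay below the control in clusters 0, 1, 4 and 7, most in cluster 4, from 135 to 39.7 CPM, a ratio of 0.293 (0.260 to 0.331). *Serpinb2* differed in sign between clusters: its ratio was 13 (7.98 to 22.6) in cluster 4, from 2.27 to 29.6 CPM, and 0.626 (0.407 to 0.928) in cluster 1. In macrophage-like cluster 7 it was at 0.875 CPM (8 UMIs) in the control and 6.75 CPM (59 UMIs) in the KO-labelled library. *F10* was at 484 and 374 CPM in cluster 4, a ratio of 0.773 (0.737 to 0.809), and level in cluster 1. Of the 3 monocyte-like clusters only cluster 11 had more in the KO-labelled library, at 1.44-fold (1.27 to 1.62). Both macrophage-like clusters had more *F10* there, from 41.9 to 68.4 CPM in cluster 0 and from 11.9 to 23.1 CPM in cluster 7. Cluster 4, where *F10* was high in both libraries, made up 675 of 2569 monocyte-like cells in the control and 636 of 975 in the KO-labelled library.

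**Figure D3:**
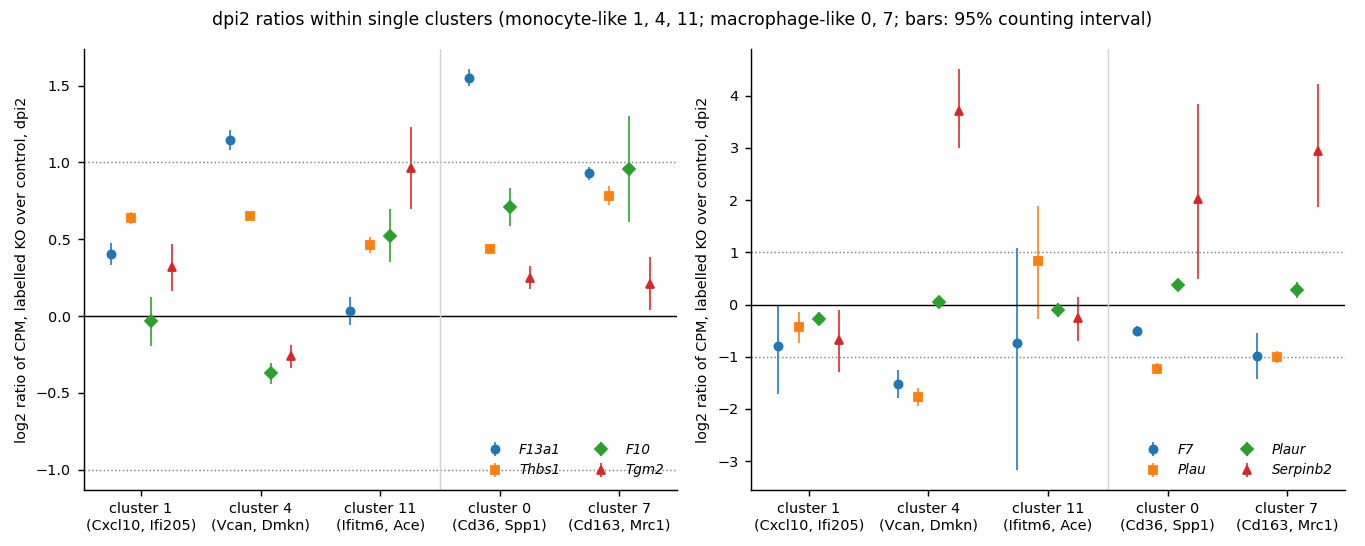
Log2 ratios of CPM at dpi2, KO-labelled library over control, inside the 5 macrophage-like and monocyte-like clusters named on the horizontal axis by number and some leading genes, with 4 genes in each panel; bars are 95% counting intervals, the solid line marks equal levels and dotted lines mark 2-fold. *Thbs1* lies above the solid line in all 5 clusters, whereas *F10*, *Tgm2* and *Serpinb2* lie on either side of it.

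At dpi4 the same approach showed where *Tgm2* differed in macrophage-like cells. It was at 120 and 206 CPM in cluster 3 (led by *Slc40a1* and *Vcam1*), a ratio of 1.72 (1.62 to 1.83), and at 71.4 and 128 CPM in cluster 6 (led by *Iigp1*), a ratio of 1.80 (1.61 to 2.01). In cluster 5, led by *Mmp12*, it was at 152 and 163 CPM, a ratio of 1.08 (1.01 to 1.14). The interval of *Tgm2* lay above 1 in clusters 3, 5, 6, 8, 10 and 14 and held 1 in clusters 0 and 16. *F13a1* at dpi4 was highest in cluster 16 (led by *Ccl8* and *C4b*), with 1336 CPM in the control and 1454 CPM in the KO-labelled library, and lowest among the macrophage-like clusters in cluster 5 in the control, with 106 CPM.

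The second comparison set dpi4 against dpi2 within a genotype, to follow the genes as the muscle moved on from the early inflammatory phase. The mice at the 2 time points were different animals. The macrophage-like class was also made up of different clusters: cluster 0 had 1168 and 597 cells at dpi2 and 87 and 75 at dpi4 (control, KO-labelled), cluster 3 had 9 and 10 and then 609 and 968, and cluster 5 had 8 and 21 and then 402 and 619. In macrophage-like cells of the controls, 2 of 8 genes were lower at dpi4, where 5.81% of all genes passed the rule downward. *Plau* went from 141 to 43.8 CPM, a ratio of 0.310 (0.295 to 0.325), and *Thbs1* from 705 to 243 CPM, a ratio of 0.345 (0.338 to 0.352). *F7* was just inside 2-fold at 0.512 (0.485 to 0.541), while *F13a1* at 0.836 (0.816 to 0.857), *F10* at 0.940 (0.872 to 1.01), *Tgm2* at 1.01 (0.972 to 1.05) and *Plaur* at 1.19 (1.14 to 1.25) stayed well inside 2-fold. With *S100a8* or *S100a9* cells left out, the log2 ratio of *F7* was -1.45 (-1.58 to -1.32) in place of -0.96, past 2-fold, and that of *F10* -0.46 (-0.61 to -0.31) in place of -0.089. With monocytes and macrophages pooled, *F10* was lower by the rule. The calls of *Plau* and *Thbs1* were kept under all 14 alternatives. Inside cluster 0, *Thbs1* was lower as well, at 0.246 (0.223 to 0.270), but *Plau* was not, at 117 and 109 CPM with a ratio of 0.926 (0.802 to 1.06), and *F13a1* was at 172 and 245 CPM, a ratio of 1.43 (1.29 to 1.57).

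In macrophage-like cells of the KO-labelled libraries, 5 of 9 genes were lower at dpi4, where 4.8% of all genes passed downward. *Thbs1* went from 963 to 188 CPM, a ratio of 0.195 (0.191 to 0.200), *F13a1* from 713 to 251 CPM at 0.352 (0.344 to 0.360) and *F10* from 54.8 to 23.6 CPM at 0.430 (0.398 to 0.464). *Serpinb2* went from 74 UMIs to none, which is 38.6-fold lower if the library at 0 is set to a floor of 3 counts. By the exact interval its ratio was at most 0.0327. *F3* had a ratio of 0.498 (0.341 to 0.724), a call lost with 7 of the 14 alternatives. *Plau* was at 0.562 (0.528 to 0.599), *F7* at 0.681 (0.636 to 0.729) and *Plaur* at 0.853 (0.815 to 0.894), and *Tgm2* alone was above 1, at 1.35 (1.29 to 1.40). Inside cluster 0, *Thbs1*, *F10* and *F13a1* had ratios of 0.175 (0.159 to 0.192), 0.405 (0.304 to 0.531) and 0.514 (0.469 to 0.561), whereas *F7* and *Plau* turned to the other side of 1, from 81.0 to 108 CPM at 1.34 (1.15 to 1.55) and from 50.1 to 74.7 CPM at 1.49 (1.24 to 1.78). With *S100a8* or *S100a9* cells left out, the log2 ratio of *F10* was -0.82 in place of -1.22, and those of *F13a1* and *Thbs1* were -1.37 and -2.38. *Serpinb2* was then left with 5 UMIs at dpi2, too few for the rule, and its call was also lost with a minimum of 200 UMIs. The median log2 ratio of the scored genes was -1.0 in the KO-labelled libraries and -0.17 in the controls, beside -0.047 and -0.070 over all genes. Markers of other cells also moved with time in macrophage-like cells. In the KO-labelled libraries the summed neutrophil markers went from 256 to 72.1 CPM, the fibroblast markers from 2.64 to 17 CPM and the muscle markers from 4.87 to 16.9 CPM, and in the controls these were 100 and 97.3 CPM, 3.40 and 34.5 CPM, and 5.12 and 26.6 CPM. Their part in the ratios over time was not tested, nor was how the time courses of the 2 genotypes differ.

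Monocyte-like cells, few at dpi4, showed 0 of 8 genes lower in the controls, where 1.98% of all genes passed downward, and 3 of 8 lower in the KO-labelled libraries, where 3.4% did. The 3 were *Thbs1*, from 3366 to 1525 CPM at 0.453 (0.423 to 0.485), *F10*, from 315 to 119 CPM at 0.378 (0.293 to 0.481), and *Serpinb2*, from 371 to 4 UMIs at 0.266 (0.072 to 0.686). In the controls *Thbs1* was level, at 1.05 (0.986 to 1.13), and *Plaur* too, at 1.02 (0.847 to 1.21). The values of both genotypes depend on how the few cells at dpi4 are classed. In the KO-labelled libraries the 3 calls were kept under all 14 alternatives, but the log2 ratio of *Thbs1* ran from -1.06 to -3.49, that of *F10* from -1.20 to -3.03 and that of *Serpinb2* from -1.55 to -6.91. With each library clustered by itself, the log2 ratio of *Thbs1* in control monocyte-like cells was -2.57 in place of 0.076.

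In neutrophil-like cells of the controls, *Thbs1*, *F10* and *Plaur* were lower at dpi4, 3 of 5 genes with enough UMIs, where 6.84% of all genes passed downward. *Thbs1* had a ratio of 0.339 (0.256 to 0.441), *F10* of 0.382 (0.218 to 0.629) and *Plaur* of 0.456 (0.326 to 0.624). Relative to the median log2 ratio of the class, 0.19, their log2 ratios were -1.76, -1.58 and -1.33. In the KO-labelled libraries, where 18.8% of all genes passed in either direction and the median log2 ratio was 0.31, *Thbs1* was lower at 0.367 (0.224 to 0.569) and *F13a1* higher at 2.85 (1.10 to 6.19), 2 of 6 genes. With each library clustered by itself, the call of *Thbs1* was lost in both genotypes, at log2 ratios of -0.72 in place of -1.56 in the controls and -0.55 in place of -1.45 in the KO-labelled libraries. The call of *F13a1* rests on 68 and 7 UMIs in 814 and 36 cells, and its log2 ratio of 1.51 became -0.37 without doublet removal and -0.19 with the members among the clustering genes. Genes of the class past the rule were 376 higher and 298 lower in the controls, and 677 and 214 in the KO-labelled libraries. Relative to the median these were 223 and 395, and 348 and 377.

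Dendritic cell-like cells had *Thbs1* lower in the controls, from 112 to 28.0 CPM at 0.250 (0.198 to 0.312), 1 of 5 genes, where 3.58% of all genes passed downward. In the KO-labelled libraries, 4 of 6 genes were lower, where 3.35% did. *Thbs1* went from 238 to 16.4 CPM, *F13a1* from 72.4 to 20.1 CPM and *F10* from 128 to 3 UMIs, while *Plau* went from 39 to 17 UMIs, a call lost with 8 of the 14 alternatives. The log2 ratio of *F10*, -5.39, was -0.87 with a mitochondrial limit of 20% and -0.75 with a minimum of 200 detected genes, so that its size depends on which cells enter the class. The log2 ratio of *Thbs1* in the controls ran from -1.07 to -2.49 under the alternatives, beside -2.0, and that of *F13a1* in the KO-labelled libraries from -1.02 to -3.02, beside -1.85. The neutrophil markers in these cells summed to 332 CPM at dpi2 and 10.7 CPM at dpi4 in the KO-labelled libraries, and to 132 and 86.5 CPM in the controls.

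Shares of cells with a UMI were compared at equal depth, with every cell thinned to 2000 UMIs, since the classes differed in depth. The median was 18600, 26488, 16247 and 15300 UMIs in macrophage-like cells and 3952, 4737, 5001 and 4846 UMIs in T or NK-like cells of control dpi2, KO-labelled dpi2, control dpi4 and KO-labelled dpi4. Between 8 and 64 macrophage-like cells per library were too shallow and left out, and at most 33 monocyte-like cells. Of the shallower neutrophil-like cells, 167 of 631 in the control and 54 of 814 in the KO-labelled library were left out at dpi2. *F13a1* was detected in 31.4% (29.3 to 33.5) of macrophage-like cells of the control and 58.8% (55.8 to 61.8) of those of the KO-labelled library at dpi2, and in 31.3% and 32.7% at dpi4. Without thinning these shares were 69.3%, 88.0%, 63.1% and 63.4%. T or NK-like cells, which should lack *F13a1*, had between 0.781% and 4.0% at equal depth. These shares come from the same counts as the CPM and rise with it. They do not tell more expressing cells apart from more RNA per cell.

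*F7* was detected in 12.8% (11.3 to 14.4) and 6.53% (5.12 to 8.20) of macrophage-like cells at dpi2 and in 3.92% and 3.80% at dpi4, and in none of the T or NK-like cells. Without thinning the shares of *F7* were 40.6%, 36.2%, 18.2% and 16.2%. For *Plau* the equal-depth shares were 19.1% (17.3 to 20.9) and 11.2% (9.34 to 13.2) at dpi2 and 6.83% and 5.54% at dpi4, beside 61.8%, 51.8%, 35.0% and 30.8% unthinned. Both genes thus followed the order of the CPM values. T or NK-like cells had up to 4.0% for *Plau* (control, dpi4), with an interval of 0.833 to 11.2 that holds the 6.83% of the macrophage-like cells of the same library.

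*Thbs1* was detected in 69.0% (67.2 to 70.8) and 85.4% (83.1 to 87.6) of monocyte-like cells at dpi2 and in 68.2% (52.4 to 81.4) and 43.9% (31.7 to 56.7) at dpi4. Unthinned, these were 83.5%, 95.2%, 84.1% and 52.2%. T or NK-like cells had 5.94% and 11.1% at dpi2 and 1.33% and 0.781% at dpi4. *F10* was detected in 29.7% (27.9 to 31.5) and 35.5% (32.5 to 38.6) of monocyte-like cells at dpi2 and in 22.7% and 15.2% at dpi4, beside 56.9%, 67.9%, 45.5% and 25.4% unthinned, and in at most 1.98% of T or NK-like cells. *Serpinb2* was detected in 3.19% and 3.10% of monocyte-like cells at dpi2, with overlapping intervals (2.54 to 3.95 and 2.10 to 4.39), although its CPM was 1.53-fold higher in the KO-labelled library. *F3* was found at equal depth in 4.74% (2.99 to 7.09) and 7.76% (5.96 to 9.90) of neutrophil-like cells at dpi2, intervals that overlap, and in 5.07% and 11.1% without thinning.

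**Figure D4:**
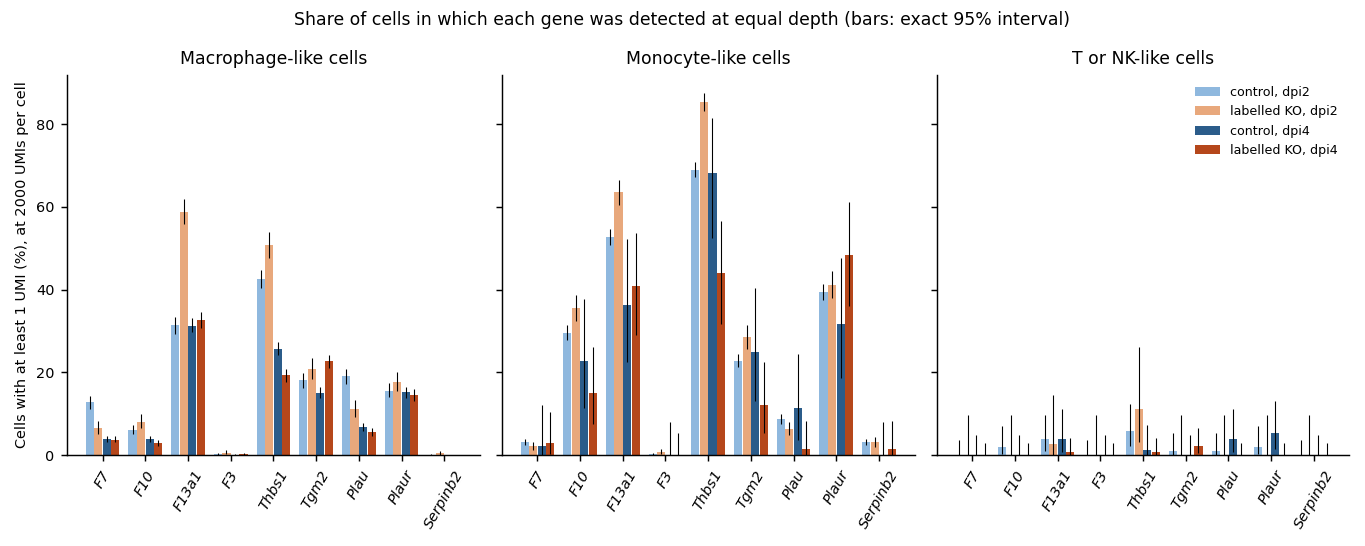
Bars give the percentage of cells with at least 1 UMI of each gene after thinning every cell to 2000 UMIs, in macrophage-like, monocyte-like and T or NK-like cells of the 4 libraries; black lines are exact 95% Clopper-Pearson intervals. *F13a1* in macrophage-like cells is at 58.8% in the KO-labelled library at dpi2 and between 31.3% and 32.7% in the other 3.

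Whether the genes were found in the same cells was described for 4 pairs fixed for this purpose, at equal depth. *Tgm2* was detected less often in macrophage-like cells with *F13a1* than in those without, in all 4 libraries: 14.4% against 19.8% and 18.8% against 23.9% at dpi2 (control, KO-labelled), and 11.8% against 16.7% and 18.1% against 24.9% at dpi4. Monocyte-like cells at dpi2 showed the same order, 18.7% against 27.5% and 24.1% against 36.3%. *F7* was found more often in cells with *F10* than in those without: in macrophage-like cells of the control in 19.1% against 12.3% at dpi2 and 16.4% against 3.41% at dpi4, and in those of the KO-labelled library in 14.1% against 5.87% and 9.33% against 3.63%. *F10* was found in 33.1% of *Thbs1*-positive and 22.0% of *Thbs1*-negative monocyte-like cells of the control at dpi2, and in 37.4% and 24.8% in the KO-labelled library. In macrophage-like cells of the KO-labelled library at dpi4 this pair stood at 2.61% and 2.98%. For *Plau* and its receptor *Plaur* the shares at dpi2 lay near each other, and their order was not the same in both classes. In macrophage-like cells *Plau* was found in 19.7% of *Plaur*-positive against 19% of *Plaur*-negative cells in the control and 13.4% against 10.7% in the KO-labelled library, and in monocyte-like cells in 7.09% against 9.77% and 6.02% against 6.68%. These shares are given as a description, with no interval of their difference.

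Across the 46 sums of cells by cluster and library with at least 50 cells, the 2 genes most alike among the 9 were *F10* and *Thbs1* (Pearson's r of log2(CPM + 1) = 0.86). The 46 points share 4 libraries and are no independent samples, so that r is a description. *Tgm2* and *Plaur* had 0.82, *Thbs1* and *Plaur* 0.81, *F7* and *Plau* 0.73, and the neighbours *F7* and *F10* 0.51. *F13a1* and *F3* were least alike, at -0.23. Among 10638 genes, *F7* was most like *Spp1* (0.92), *Htr2b* (0.92) and *Rnf128* (0.91), and *Plau* most like *Plin2* (0.90), *Slc37a2* (0.88) and *Pdxk* (0.88). *F10* was nearest to *Msrb1*, *P2ry2* and *Card19* (0.86 each), and *Thbs1* to *Rhou* (0.86), *F10* (0.86) and *Chil3* (0.85). *F13a1* was nearest to *Adam15* (0.92), *Adam9* (0.89) and *Ms4a6d* (0.89), *Tgm2* to *Tnfaip2* (0.89), *Lilr4b* (0.86) and *Slc15a3* (0.85), and *Plaur* to *Sirpb1c* (0.90), *Cd14* (0.90) and *Slc15a3* (0.87). *F3* was nearest to *Wfdc21* (0.91), *Stfa2l1* (0.89) and *Gm5483* (0.84). *Serpinb2* had its highest r with *Serpinb10* (0.93), the gene that overlaps it, then with *Plcb1* (0.85) and *Vcan* (0.84).

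The wider pathway was followed with 46 further genes, of which *Fga*, *Fgb*, *Fgg*, *F12* and *Plg*, encoding fibrinogen chains, factor XII and plasminogen, had no UMI in the kept cells. In macrophage-like cells at dpi2, 23 had enough UMIs and 1 passed the size rule, a share close to the 4.44% of all genes. This was *Serpine2*, which encodes protease nexin 1 and was lower in the KO-labelled library, from 5.38 to 1.04 CPM (log2 ratio -2.38). At dpi4 none of the 26 with enough UMIs passed in this class, where 2.27% of all genes did. In monocyte-like cells none of 22 passed at dpi2 and none of 11 at dpi4, beside 4.4% and 3.19% of all genes.

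Between dpi2 and dpi4, 6 of 25 of these genes passed the rule in control macrophage-like cells, where 15.6% of all genes passed in either direction. *Pros1*, encoding the anticoagulant protein S, rose from 14.4 to 43.1 CPM, *Serpine2* from 5.38 to 13.7 CPM and *Itgb3*, an integrin subunit, from 25 to 85 UMIs. *Cd36*, a scavenger receptor that binds thrombospondin, fell from 1130 to 332 CPM, and *S100a10* and *Anxa2*, whose products form a plasminogen-binding complex, fell from 936 to 361 and from 852 to 378 CPM. In the KO-labelled libraries, 3 of 24 passed, where 13.7% of all genes did: *Pros1* (log2 ratio 1.0) and *Serpine2* (3.26) were higher and *S100a10* (-1.40) lower. In monocyte-like cells, 3 of 18 were lower in the controls, *F5*, *S100a10* and *Anxa2*, and 1 of 17, *S100a10*, in the KO-labelled libraries, where 1.98% and 3.4% of all genes passed downward. *F5*, which encodes factor V, went from 14.4 to 2.24 CPM in the controls, a ratio of 0.155 (0.0039 to 0.871) that rests on 1 UMI at dpi4.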

How the data were processed

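The deposited files held, for each of 4 libraries, raw UMI counts per gene and barcode, which the authors made with Cell Ranger 6.1.2 (per the submitters' processing notes) and the mm10 genome, without normalization. The authors' cell annotation was not used here. Barcodes with under 10% mitochondrial UMIs and at least 500 genes were kept, and from 100 to 289 per library were removed as doublets by Scrublet score (0.8% per 1000 cells). Counts scaled to 10000 per cell were log-transformed, and 2000 variable genes, without the genes described here and the wider list, gave 30 components, 15 neighbours and Leiden clusters at resolution 1 (scanpy 1.11.5, leidenalg 0.10.2). Clusters were named where at least 3 fixed markers were detected in 10% of cells, unless leading genes went against the name. A cluster under 1/3 of the depth of its libraries also stayed unnamed if no marker of its class was among its leading genes. Of 83 markers, 81 were matched.

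With 1 library per group, UMIs were summed per class and library. Intervals are exact: Poisson for CPM, conditional binomial for ratios and Clopper-Pearson for shares (scipy 1.17.1). Scripts were tested on simulated data. The genes, lists and markers were chosen with earlier results of these data known. Of the wider list, genes past the size rule in macrophage-like or monocyte-like cells were named, except 1 gene of the list that is not reported here and is in none of its counts, and for likeness the 3 genes with the highest r among those with at least 500 UMIs. Positions are those of GENCODE for GRCm38, the assembly behind mm10. Alternatives changed the filters, doublets, resolution, clustering genes, joint clustering, size rule, UMI minimum, thinning, centring and pooling, and left out cells with platelet-marker or, added after seeing the data, *S100a8* or *S100a9* UMIs.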

Additional observations from a re-analysis of the deposited data

Results flagged for a closer look

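In several classes a gene lay above the control at dpi2 and below it at dpi4 in the KO-labelled libraries, and the difference between the time points was not tested. The log2 ratio of labelled KO over control for *F13a1* was 1.16 at dpi2 and -0.085 at dpi4 in macrophage-like cells, and 0.48 and -0.54 in dendritic cell-like cells. For *F10* it was 0.81 and -0.32 in macrophage-like cells and 0.37 and -0.73 in monocyte-like cells. With *S100a8* or *S100a9* cells left out, *F10* in macrophage-like cells at dpi2 was at 0.14 (-0.20 to 0.46), an interval that holds 0, and with each library clustered by itself *F10* in monocyte-like cells at dpi4 was at 1.31 (0.88 to 1.76), above the control. For *Thbs1* it was 0.83 and -0.39 in monocyte-like cells and 1.08 and -0.77 in dendritic cell-like cells. The intervals of each pair of values lay on opposite sides of 0, for counting error only. At dpi4 the interval of *F13a1* in macrophage-like cells held 0 with a mitochondrial limit of 20%, without doublet removal and at resolution 0.5, and that of *Thbs1* in monocyte-like cells held 0 with each library clustered by itself. At resolution 2, *F13a1* in dendritic cell-like cells lay below the control at dpi2 as well, and without doublet removal its interval held 0.

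*F13a1* in the KO-labelled libraries also went opposite ways between classes from dpi2 to dpi4, which was not tested either. Its log2 ratio of dpi4 over dpi2 was -1.51 in macrophage-like and -1.85 in dendritic cell-like cells, and 1.51 in neutrophil-like cells, where it rests on 7 UMIs at dpi4 and was -0.37 without doublet removal.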

How the results depend on the processing

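Of 29 calls of a gene as higher or lower, 13 were kept under all 14 alternatives and 16 were lost under at least 1. *F3* in neutrophil-like cells at dpi2 was the only call of labelled KO over control kept under all 14. None of the 14 was set to add the unnamed cluster 12 to that class. There were 9 calls of labelled KO over control, and 7 to 9 with 10 of the alternatives, but 18 with each library clustered by itself, 16 with a 1.5-fold rule, 4 with at least 200 UMIs and 4 with monocytes and macrophages pooled. For dpi4 over dpi2 there were 20 calls, and 15 to 30 under the alternatives. Macrophage-like cells were above monocyte-like cells in 10 of 36 gene and library pairs, and in 17 with each library clustered by itself. Pooling gave no value for this count. By shares at equal depth it was 11, with 10 at 1000 UMIs and 15 without thinning. Over single values, 1713 of 1816 kept their call or stayed without one, and values without a call could change sign and still count here. The other sign, with a call in at least 1 of the runs compared, was found for 17, counted as reversed. With each library clustered by itself these were *F10* in monocyte-like cells at dpi4 (labelled KO over control 1.31), *F10* in dendritic cell-like controls over time (1.37), and in monocyte-like controls over time *Thbs1* (-2.57), *Tgm2* (-1.09), *Plau* (-1.12), *Plaur* (-2.06) and *Serpinb2* (-2.70). With monocytes and macrophages pooled, *Thbs1* (-2.22), *Plau* (-1.32) and *Serpinb2* (-4.92) reversed in the controls over time. *F10* in dendritic cell-like controls over time was 1.25 with 200 genes and 1.12 at resolution 0.5, *Plau* in KO-labelled ones 0.20 with 200 genes, 0.15 without doublet removal and 0.090 with the members among the clustering genes, and *F13a1* in neutrophil-like KO-labelled cells over time -0.37 and -0.19 with the last 2 of these. The cause was not tested. No paired analysis was possible because each group was 1 library and no test was run. Classes of 36 to 67 cells at dpi4 and genes under 50 UMIs limit what could be seen.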
